A study of Mus musculus with 6 samples.

Results

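CXC chemokines are small secreted proteins that guide leukocytes, and the family was followed here in 2 lines of mouse ovarian cancer cells. The members were every array probe annotated to one of 10 CXC chemokine genes, namely Cxcl1, Cxcl2, Cxcl5, Cxcl9, Cxcl10, Cxcl11, Cxcl14, Cxcl15, Cxcl16 and Cxcl17. This gave 15 of the 45281 probes, which covered 9 of the 10 genes among 19057 genes with a probe on the array. Cxcl5 was not analysed here because no probe carried its symbol, and Cxcl12, another CXC chemokine, was set aside. RNA was measured in 3 samples of parental ID8, an ovarian epithelial papillary serous adenocarcinoma line of C57BL/6 mice, and in 3 samples of ID8-M, which was grown from ID8 cells passed through mice. To obtain it, ID8 cells had been injected into the abdomen of female C57BL/6 mice aged 8 weeks. Cells were taken from the haemorrhagic ascites 12 weeks later, freed of erythrocytes and plated, and clones picked after 4 days were passaged into ID8-M, per the submitters' design text. Both lines grew without further treatment in high-glucose medium with 4% serum, insulin, transferrin and selenite. ID8-M is thus a cultured line from picked clones, and neither the number of clones nor that of mice is stated.

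CXC chemokines signal through G protein-coupled receptors and bind to proteoglycans on cell surfaces. One branch, which in mice includes Cxcl1, Cxcl2, Cxcl5 and Cxcl15, attracts neutrophils, mainly through the receptor Cxcr2, and many of its genes are induced through the transcription factor NF-kappaB. A second branch, Cxcl9, Cxcl10 and Cxcl11, is induced by interferons and attracts T cells and NK cells through Cxcr3. In ovarian cancer, chemokines made by tumour cells are studied for their part in drawing myeloid cells and lymphocytes into the peritoneal cavity, and the series title names macrophage recruitment as a question of the study.

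Cxcl1 and Cxcl2 lie next to each other on chromosome 5, and Cxcl10 lies further along the same chromosome. Their upstream sequences are shown because Cxcl1 and Cxcl2 hold the same site but gave different array signals, and because Cxcl10 moved against Cxcl1. Each sequence is the 250 bases before the RefSeq start in GRCm38.p6, read in the direction of the gene. They span chr5:90890995-90891244 (Cxcl1, plus strand), chr5:90903649-90903898 (Cxcl2, plus strand) and chr5:92348890-92349139 (Cxcl10, minus strand), with matches to the NF-kappaB consensus and to the interferon response element core GAAANNGAAA in capitals.
Cxcl1: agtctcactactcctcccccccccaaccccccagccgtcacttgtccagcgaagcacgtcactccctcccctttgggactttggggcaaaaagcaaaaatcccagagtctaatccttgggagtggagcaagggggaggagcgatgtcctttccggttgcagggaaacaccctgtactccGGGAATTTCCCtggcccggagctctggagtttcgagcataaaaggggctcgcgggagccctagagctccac
Cxcl2: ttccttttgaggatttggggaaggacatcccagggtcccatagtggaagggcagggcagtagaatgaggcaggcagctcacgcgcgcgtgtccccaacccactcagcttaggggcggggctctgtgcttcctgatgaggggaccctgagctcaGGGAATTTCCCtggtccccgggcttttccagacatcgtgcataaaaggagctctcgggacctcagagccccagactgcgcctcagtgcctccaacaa
Cxcl10: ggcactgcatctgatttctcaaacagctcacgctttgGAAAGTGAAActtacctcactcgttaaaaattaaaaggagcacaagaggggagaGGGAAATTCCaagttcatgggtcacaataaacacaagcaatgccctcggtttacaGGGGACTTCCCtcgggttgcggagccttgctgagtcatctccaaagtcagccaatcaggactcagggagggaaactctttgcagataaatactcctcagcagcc

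The motif GGGAATTTCC stood 71 to 62 bases before the start of Cxcl1 and 97 to 88 bases before that of Cxcl2. These 10 letters were read from the Cxcl1 window, as its first match to the consensus, so its own match was fixed. Searched on both strands, they occurred in 28 of 32817 such windows (0.0853%), against 2379 (7.25%) for the NF-kappaB consensus and 974 (2.97%) for GAAANNGAAA. An exact string is necessarily rarer than a consensus that includes it. In Cxcl1 and Cxcl2 a further match to the consensus overlapped that one, shifted by 1 base. Cxcl10 held 3 consensus matches, of which 2 overlapped, and its GAAANNGAAA core stood 213 to 204 bases before the start. Its match GGGAAATTCC reads, on the other strand, as GGAATTTCCC, the overlapping match of Cxcl1 and Cxcl2. RefSeq windows were matched for 6 of the 10 members. Cxcl9 and Cxcl15 held none of these motifs in their windows, and Cxcl14 held 1 GAAANNGAAA core. A match describes the letters of the window only.

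The arrays gave the mean intensity over the beads that carry a probe, in linear units. A probe counts as detected on an array when its detection p-value, set against that array's negative control beads, is under 0.05. Between 16386 and 17186 probes were detected per array, and a median of 37 to 39 beads stood behind each probe. Over the tested probes, correlations ran from 0.9933 to 0.9946 within a line and from 0.9673 to 0.9704 between the lines. All 6 samples lay on a single chip, parental ID8 at positions A to C and ID8-M at D to F, so chip position and line cannot be told apart. Nothing in the labels says that the 3 samples of a line came from separate cultures, so the p-values measure only the spread between these samples. As checks of the label, the epithelial keratins Krt7, Krt8, Krt18 and Krt19 and the mesothelial and ovarian surface genes Msln, Upk1b and Upk3b were detected on all 6 arrays. Lrrn4 of the same mesothelial list was detected on the 3 ID8-M arrays and on 0 parental arrays, and the epithelial adhesion gene Epcam on none.

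Among the CXC chemokines, Cxcl1 separated the lines most: it was not detected in parental ID8 and bright in ID8-M. Cxcl16 and Cxcl17 were detected in both lines and rose less than 3-fold in ID8-M, Cxcl10 was detected in both and fell, and the other 5 genes with probes were detected on no array. The plot of intensities by probe and array shows these groups.

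**Figure D1:**
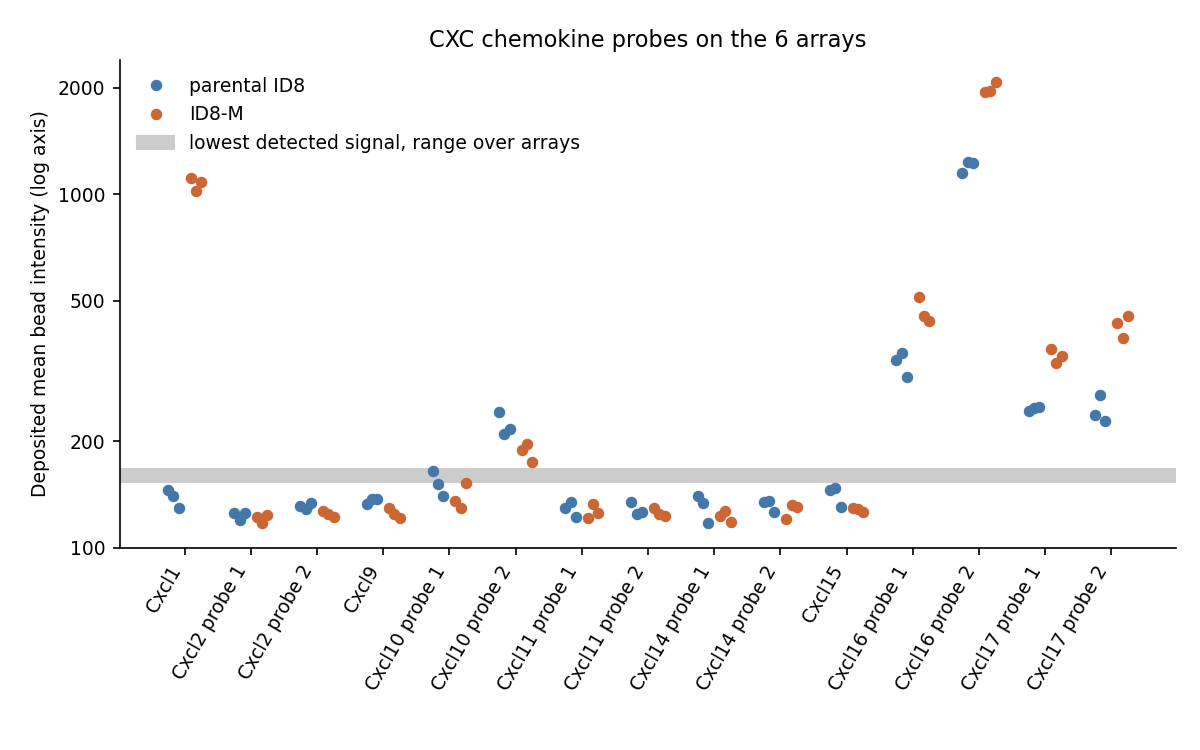
Deposited mean bead intensity (linear units on a log axis, before background subtraction or normalization) of the 15 CXC chemokine probes, with 1 point per array, 3 for parental ID8 and 3 for ID8-M. The grey band spans the lowest detected signal of each array, 152.8 to 166.5. Cxcl1 lies under the band in parental ID8 and between 1021 and 1111 in ID8-M. Probe 1 and 2 of a gene are numbered by probe identifier, and levels of different probes cannot be set against each other.

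Cxcl1, which attracts neutrophils through Cxcr2, is represented by 1 probe. In parental ID8 its intensity was 145.2 in sample 1, 140.2 in sample 2 and 129.5 in sample 3, with detection p-values of 0.243, 0.354 and 0.499. In ID8-M it was 1111 in sample 1, 1021 in sample 2 and 1085 in sample 3, with a detection p-value of 0 on each array. The 3 parental samples were thus at background, the 3 ID8-M samples lay close together, and the groups did not overlap. The standard error over the 29 to 32 beads of the probe was 4.51 to 5.12 in parental ID8 and 53.5 to 63.8 in ID8-M.

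After background correction and quantile normalization, the Cxcl1 log2 intensity was 4.75 ± 0.10 (SD, n = 3) in parental ID8 and 9.93 ± 0.08 (SD, n = 3) in ID8-M. Because parental ID8 had no detected signal, the fold is given as a bound: in ID8-M, Cxcl1 exceeded the lowest detected signal of the parental arrays at least 23.0-fold. The fitted log2 difference was 5.18 ± 0.09 (SE; limma adjusted p = 2.39e-08), and among the 16221 tested probes 3 had a larger rise. The p-value belongs to the fitted difference, not to the bound. Bound and difference hold on the background-corrected scale only. The size depended on the background step, since without background correction the log2 difference was 3.01 (limma adjusted p = 2.06e-14), which is less than the bound. Cxcl1 lies on chromosome 5, where the median difference of 614 tested genes was 0.04 (log2).

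The genes whose centred values over the 6 arrays lay nearest to those of Cxcl1 were Wfdc1, Dmkn, Slc39a4, Gstk1 and Krt14. Nearness was the root mean square difference of log2 values, each gene centred on its own mean, over 8932 other tested genes. It was 0.24 for Wfdc1, a secreted protein of the whey acidic protein family, 0.25 for Dmkn, which encodes the epidermal protein dermokine, and 0.25 for Slc39a4, a zinc importer. It was 0.26 for Gstk1, a glutathione S-transferase, and 0.37 for Krt14, a keratin of basal epithelium. Wfdc1 and Gstk1 were likewise detected on no parental array and on all 3 ID8-M arrays, whereas Dmkn and Krt14 were detected on all 6 and Slc39a4 on 2 parental and 3 ID8-M arrays. Because genes were centred but not scaled, nearness mostly reflects a rise of similar size. The fitted log2 differences were 5.63 (Wfdc1), 5.62 (Dmkn), 4.97 (Slc39a4), 4.72 (Gstk1) and 4.48 (Krt14), against 5.18 for Cxcl1. As bounds, Wfdc1 and Gstk1 exceeded the lowest detected signal of the parental arrays at least 32.7-fold and 19.0-fold. Without background correction Dmkn was at 4.85, Slc39a4 at 3.24 and Cxcl1 at 3.01, so Dmkn lay further from Cxcl1 there. Across the alternatives the lowest values were 3.45 (Wfdc1), 2.81 (Krt14) and 2.69 (Gstk1). Nearness was not recomputed for these settings.

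The other neutrophil-attracting genes with probes gave no detected signal. Cxcl2, the neighbour of Cxcl1 and a close relative, has 2 probes, and Cxcl15, a chemokine known from mouse lung, has 1. For Cxcl2, the fit without the detection filter gave log2 differences of 0.01 (95% CI −0.14 to 0.17) and −0.07 (95% CI −0.23 to 0.10). For Cxcl15 it gave −0.18 (95% CI −0.36 to 0.00), with the 3 ID8-M values just under the 3 parental ones and all 6 at background. These intervals hold for background-level signal, where a probe cannot show a change in a transcript too scarce to detect. The Cxcl2 probes were undetected in ID8-M, in which the adjacent gene Cxcl1, with the same GGGAATTTCC in the upstream window printed above, was bright. Whether the motif bears on either signal was not tested.

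Cxcl16, made as a transmembrane protein whose shed form attracts cells through the receptor Cxcr6, rose by both of its probes. Its brighter probe gave intensities of 1149, 1237 and 1228 in parental samples 1 to 3 and of 1951, 1955 and 2077 in ID8-M samples 1 to 3. Every ID8-M value lay above every parental value, and the spread within a line was small beside the gap. The log2 level was 10.05 ± 0.11 (SD, n = 3) in parental ID8 and 10.91 ± 0.12 (SD, n = 3) in ID8-M, a difference of 0.86 ± 0.10 (SE; limma adjusted p = 0.000428), or 1.82-fold.

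The dimmer probe of Cxcl16 gave 338.5, 355.1 and 303.1 in parental ID8 and 511.6, 452.0 and 437.3 in ID8-M, again without overlap. Its log2 difference was 0.74 ± 0.09 (SE; limma adjusted p = 0.000533), or 1.66-fold. The 95% intervals of the probes, 0.64 to 1.09 and 0.53 to 0.94, overlapped. On chromosome 11, which carries Cxcl16, 782 tested genes had a median of 0.04 (log2 difference).

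Cxcl17, a chemokine of mucosal epithelia that attracts myeloid cells, also rose by both probes. One probe gave 237.2, 270.8 and 227.4 in parental samples 1 to 3 and 432.0, 392.4 and 453.4 in ID8-M samples 1 to 3. The lowest ID8-M value was well above the highest parental value, which was that of sample 2. The difference was 1.31 ± 0.13 (SE; limma adjusted p = 0.00019) on the log2 scale, or 2.48-fold, from 6.96 ± 0.19 to 8.27 ± 0.19 (SD, n = 3 each).

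The other probe of Cxcl17 gave 243.0, 248.0 and 249.1 in parental ID8 and 365.0, 332.5 and 347.6 in ID8-M. Those groups did not overlap either, and the difference was smaller, at 0.86 ± 0.10 (SE; limma adjusted p = 0.000431), or 1.81-fold. Whether the probes differ from each other was not tested. Without background correction the log2 differences were 0.81 and 0.51, so the sizes of both depended on the background step while both stayed called. On chromosome 7, which carries Cxcl17, the median over 625 tested genes was −0.01 (log2 difference).

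Cxcl10, the interferon-induced ligand of Cxcr3, was the one member that fell. Its detected probe gave 241.9, 209.6 and 215.8 in parental samples 1 to 3 and 188.8, 196.7 and 175.1 in ID8-M samples 1 to 3. All parental values lay above all ID8-M values, but the gap between the nearest pair, parental sample 2 and ID8-M sample 2, was smaller than the spread within either line. The log2 level went from 6.68 ± 0.24 to 6.13 ± 0.18 (SD, n = 3 each), a difference of −0.55 ± 0.14 (SE; limma adjusted p = 0.0231), or 1.46-fold lower.

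The Cxcl10 call rested on single arrays: it was lost without parental sample 1 (limma adjusted p = 0.0733), parental sample 3 (0.0668), ID8-M sample 1 (0.0661) or ID8-M sample 3 (0.0765). Without background correction the log2 difference was −0.23. The second Cxcl10 probe was detected on no array, with intensities from 129.7 to 164.9, and its unfiltered log2 difference of −0.20 (95% CI −0.69 to 0.28) left room for either direction.

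Cxcl9, which shares Cxcr3 with Cxcl10, was detected on no array (log2 difference of −0.13 without the filter, 95% CI −0.30 to 0.05). The same held for both probes of Cxcl11, the other ligand of Cxcr3, which the RefSeq annotation of C57BL/6J lists as a transcribed pseudogene (0.04, 95% CI −0.13 to 0.21, and 0.01, 95% CI −0.14 to 0.17). Cxcl14, a chemokine made by many resting epithelia, was undetected by both probes (−0.07, 95% CI −0.26 to 0.13, and 0.00, 95% CI −0.17 to 0.18). Over the 9 undetected member probes, intensities ran from 117.2 to 164.9, and without the filter 0 of the 9 passed in limma (lowest adjusted p = 0.266).

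Of the 15 probes, 6 from 4 genes passed the detection filter, and all 6 were called, 5 higher and 1 lower, where called means a limma adjusted p under 0.05. Of all 16221 tested probes 28.4% were called, 13.6% higher and 14.8% lower, and in 44.6% the arrays of the lines did not overlap. By gene, 3 members rose and 1 fell, where 30.8% of the 8933 tested genes were called. The median log2 difference was 0.86 over the 6 probes and −0.04 over all tested probes. Cxcl1 passed the filter only through ID8-M, and 4 of the 6 probes are pairs for 1 transcript each, so the count is a description and not 6 separate findings.

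**Figure D2:**
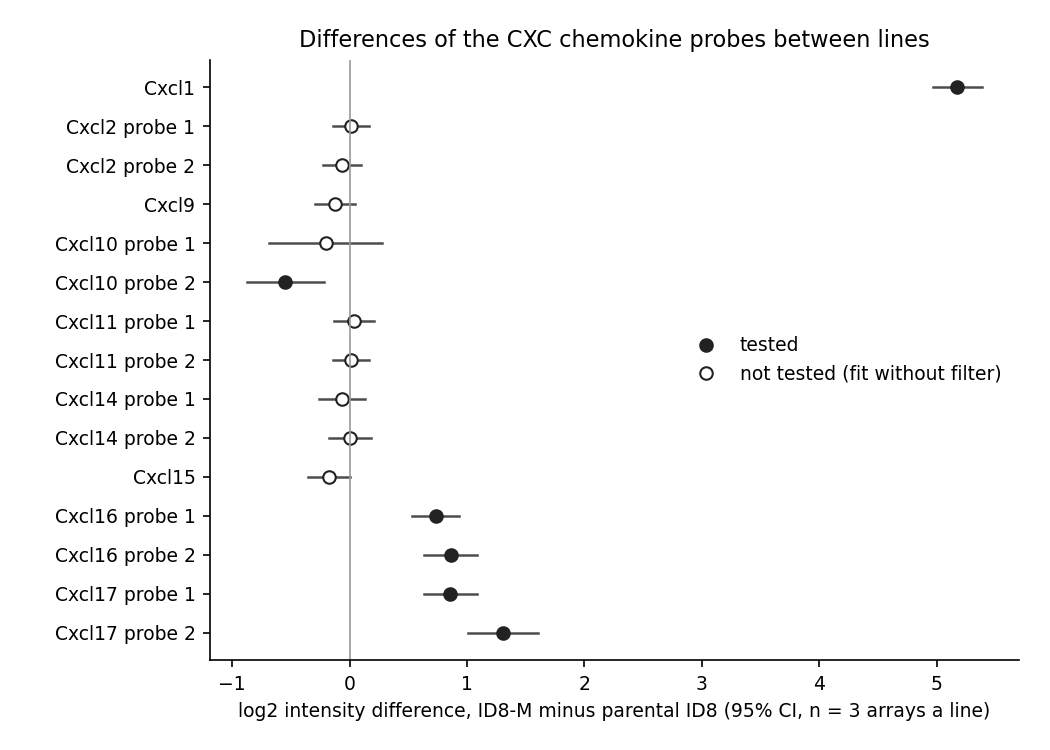
Difference in log2 intensity between ID8-M and parental ID8 for each of the 15 CXC chemokine probes, with 95% confidence intervals from limma (n = 3 arrays a line). Filled points passed the detection filter, and open points come from a fit without it. Cxcl1 stands apart at 5.18, the Cxcl16 and Cxcl17 probes lie between 0.74 and 1.31, the detected Cxcl10 probe lies at −0.55, and the open points lie between −0.20 and 0.04.

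Other CXC ligands, again leaving Cxcl12 aside, were read from probes of Cxcl3, Cxcl13, Pf4 and Ppbp, of which Cxcl3, Pf4 and Ppbp lie between Cxcl5 and Cxcl15 in the same cluster as Cxcl1. Those 3 genes were detected on no array. Cxcl13, which attracts B cells through Cxcr5, gave 211.6, 211.6 and 200.2 in parental ID8 and 138.4, 122.9 and 127.1 in ID8-M, where it was detected on no array. ID8-M was lower by at least 2.11-fold, and the fitted log2 difference was −1.79 (limma adjusted p = 3.76e-06). Without background correction the log2 difference of Cxcl13 was −0.65.

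Of the receptors, 6 were read, and Cxcr4 and Ackr3 were not analysed here. Cxcr1, Cxcr2, Cxcr3, Cxcr5, Cxcr6 and the decoy receptor Ackr1 had probes, and 0 of the 6 genes was detected on any array of either line. Cxcl16 and Cxcl1 RNA was thus measured in cells whose Cxcr6 and Cxcr2 probes stayed at background.

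Genes of the NF-kappaB arm, from receptors that induce Cxcl1 to the factors and their inhibitors, moved both ways. The share of them called was near the 30.8% over all tested genes. Of 24 tested genes, 5 rose and 3 fell, with a median log2 difference of −0.00, where 15.4% of all 8933 tested genes rose, 15.3% fell and the median was −0.03. Tlr2, a receptor for bacterial lipoproteins, gave a signal at least 1.63-fold above the bound of parental ID8, and Il1rap, the accessory chain of the interleukin 1 receptor, at least 1.32-fold. Their fitted log2 differences were 0.99 (limma adjusted p = 0.000234) and 0.71 (limma adjusted p = 0.0121). Neither was detected on any parental array, and without background correction their log2 differences were 0.32 and 0.22. Nfkbie, an inhibitor of NF-kappaB, rose by 0.31 ± 0.07 by its brighter probe and was not called by its other tested probe (0.16). The other rises were Nfkbia and Relb, a subunit of NF-kappaB, and the call of Relb was lost without any single one of the 6 arrays.

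Among the falls, Tnfaip3, an enzyme that restrains NF-kappaB signalling, differed by −0.60 ± 0.13 on the log2 scale and Ikbkg, the regulatory subunit of the IKK complex, by −0.57 ± 0.09. Ikbkg was at −0.31 once the median of its chromosome was removed. Irak2, a kinase downstream of the interleukin 1 receptor, differed by −0.42 ± 0.09 by its brightest probe and by 0.38 by another, both called, so its direction is uncertain. The subunit genes Rela (0.21 ± 0.08, limma adjusted p = 0.0742) and Nfkb2 (0.02 ± 0.08, 0.905) were not called. Without background correction 9 genes of this list rose and 4 fell, where calls over all 16221 tested probes went from 4610 to 5296.

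Genes of the interferon arm gave 3 rises and 1 fall among 12 tested, with a median log2 difference of 0.10, a share of called genes near the 30.8% over all tested genes. Jak2, a kinase of the interferon gamma receptor, rose by 0.61 ± 0.08 (limma adjusted p = 0.00106). Irf1, an interferon-induced transcription factor, rose by 0.35 ± 0.09, and Ifngr2, a chain of the interferon gamma receptor, by 0.29 ± 0.08. Other tested probes of Ifngr2 gave 0.41 and 0.20 and were not called. Irf9, the DNA-binding part of the type I interferon complex, differed by −0.32 ± 0.10 and was not called by its other probe, and it was at −0.17 without background correction. Of these 4 calls, that of Jak2 held without any single array. That of Irf9 was lost without any of the 6, that of Ifngr2 without any but parental sample 3, and that of Irf1 without parental sample 2, ID8-M sample 1 or ID8-M sample 2.

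Among regulators of chemokine mRNA decay, 0 of 8 tested genes was called in limma, and the smallest adjusted p was that of Elavl1, an mRNA-stabilising protein (−0.23 ± 0.10, limma adjusted p = 0.122). At an unadjusted p under 0.05 the count was 1, and with a trended, robust variance 2 genes were called lower. That variance called 5337 of all probes, against 4610 in the main fit. Zfp36, which speeds the decay of many cytokine mRNAs, differed by 0.13 ± 0.10. Among proteases known to cut or shed CXC chemokines, 1 of 4 tested genes rose and 2 fell, where 30.8% of all tested genes were called. The collagenase Mmp13 rose by 0.77 ± 0.09, the gelatinase Mmp2 differed by −0.91 ± 0.15 and the membrane-bound Mmp14 by −0.58 ± 0.09, with Mmp2 at −0.36 without background correction. Adam17, a sheddase that can release Cxcl16, differed by −0.03 ± 0.08 (limma adjusted p = 0.808), and the related Adam10, detected on 1 parental array only, was not tested.

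**Figure D3:**
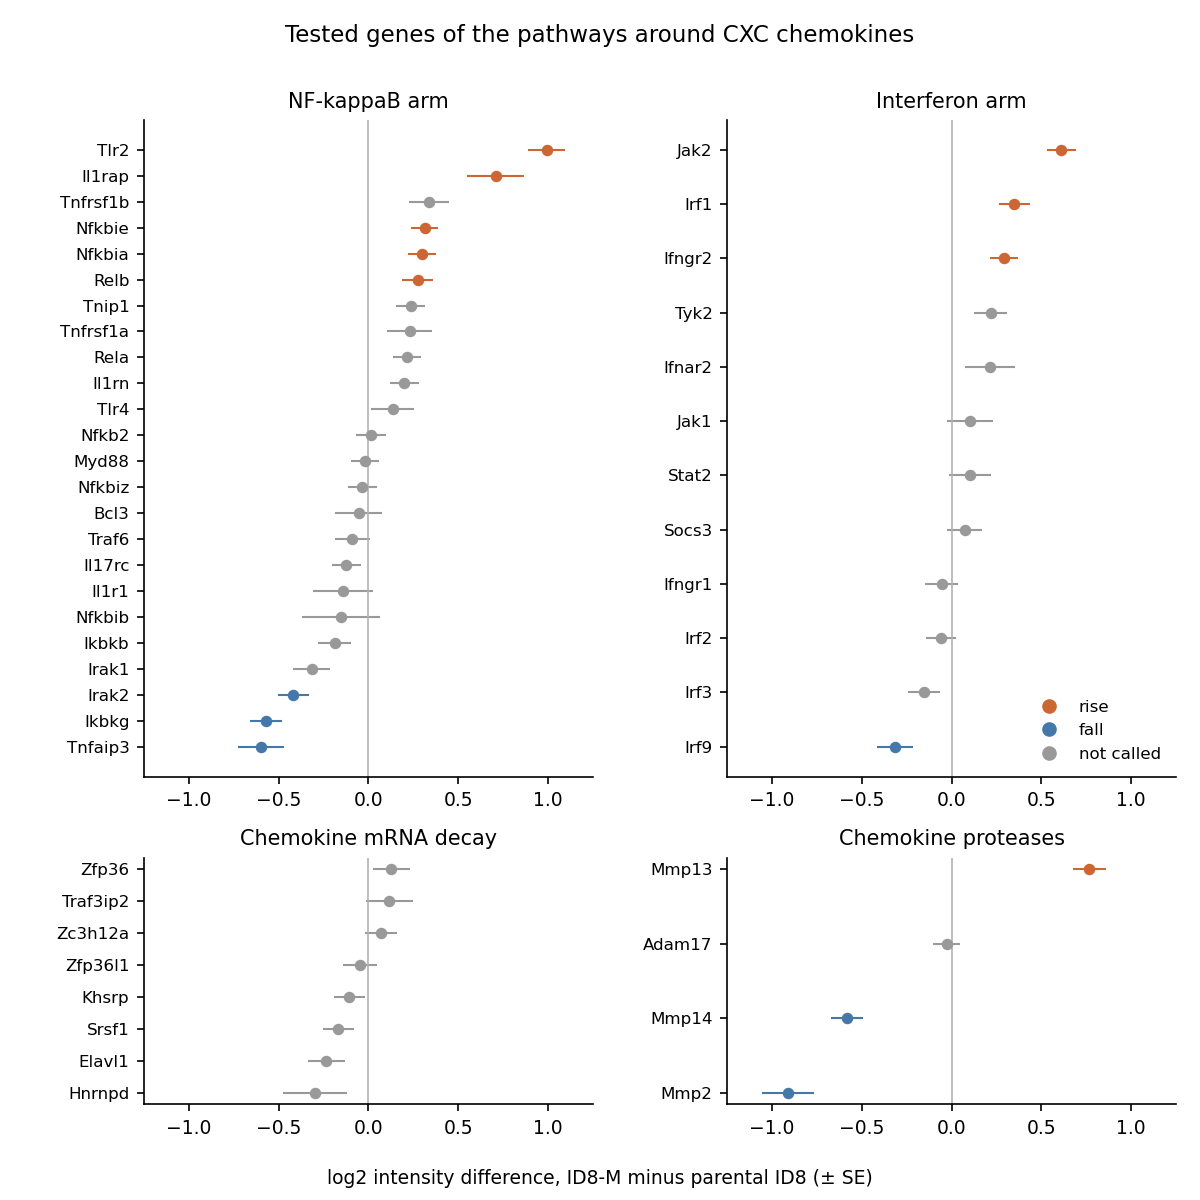
Difference in log2 intensity between ID8-M and parental ID8 for every tested gene of 4 lists around the CXC chemokines, with standard errors from limma. Orange points rose and blue points fell at a limma adjusted p under 0.05, and grey points were not called. The points lie between −0.91 and 0.99, against 5.18 for Cxcl1.

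GGGAATTTCC was found upstream of 28 genes, among them Cxcl1, Cxcl2, Cxcl3 and Nfkbia, which encodes the main inhibitor of NF-kappaB. Of these, 19 had a probe and 9 were tested, of which 3 rose, Cxcl1 included, and 1 fell, where 30.8% of all tested genes were called. The rises were Cxcl1, Csad, an enzyme of taurine synthesis (0.83 ± 0.11, or 0.51 without background correction), and Nfkbia (0.30 ± 0.08), and the fall was Il16, a T cell attractant (−0.60 ± 0.12). These genes are named because of the motif, a choice made after the Cxcl1 value was seen, and the Nfkbia call was lost without parental sample 1, parental sample 2, ID8-M sample 1 or ID8-M sample 3.

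No tested neighbour of a member approached the Cxcl1 difference in size, though around Cxcl1 itself only 1 was tested. Tm4sf5, beside Cxcl16, rose by 1.97, more than Cxcl16 (0.86). Scarb2, near Cxcl10, rose by 0.60, against −0.55 for Cxcl10. Counting 5 annotated genes on either side of each member or member cluster and those in between, 54 neighbours were found, 29 with a probe and 9 tested, of which 4 rose and 1 fell, beside 15.4% and 15.3% of all tested genes. Around Cxcl1 the only tested neighbour was Epgn, an epidermal growth factor family ligand, which rose by 0.72 ± 0.11 (0.23 without background correction) and was detected on 4 of the 6 arrays. Cxcl2 on one side, Cxcl15 on the other, and the next genes Mthfd2l and Ereg were detected on no array.

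Around Cxcl10, Sdad1 differed by −0.37 ± 0.09, Nup54, a nuclear pore protein, by −0.16 ± 0.19 and Scarb2, a lysosomal membrane protein, by 0.60 ± 0.09. Sdad1 lost its call without parental sample 2, ID8-M sample 2 or ID8-M sample 3, and Nup54 was not called (limma adjusted p = 0.562). Beside Cxcl16, Zmynd15 rose by 0.36 ± 0.10 and Tm4sf5, a tetraspanin-like membrane protein, by 1.97 ± 0.12 (0.78 without background correction), while Arrb2, Med11 and Psmb6 were not called. Zmynd15 was not called without parental sample 1, parental sample 3, ID8-M sample 2 or ID8-M sample 3.

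**Figure D4:**
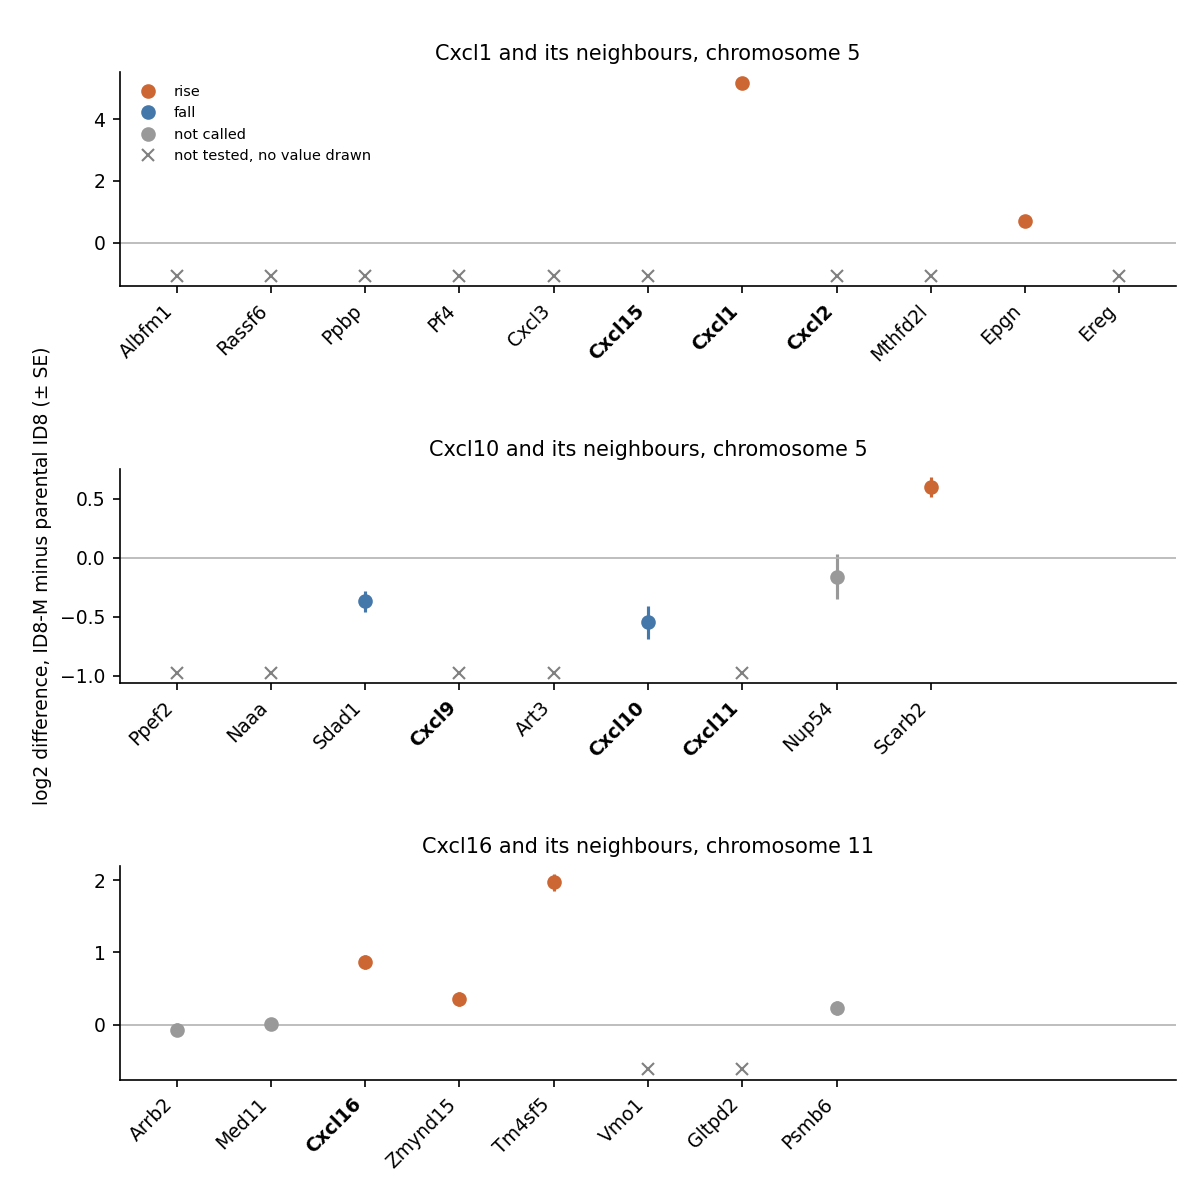
Difference in log2 intensity between ID8-M and parental ID8 (± SE) for genes with a probe around Cxcl1, Cxcl10 and Cxcl16, in chromosome order and not to scale, with the CXC chemokines of the family in bold. Crosses mark genes that were not tested and carry no value. In the upper panel Cxcl1 stands at 5.18 beside undetected neighbours, and Epgn is at 0.72. The height of Cxcl1 is the fitted value, against a parental signal at background.

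Since ID8-M was grown from ascites, markers of other cells that make CXC chemokines were read from the same arrays. In bulk samples such as these, fewer cells of a type and less RNA per cell cannot be told apart. Of 11 macrophage markers with a probe, 9 were detected on no array, among them Ptprc, Adgre1, Csf1r, Itgam and Lyz2. The summed normalized intensity of the list, most of it from Cd14, was 546.1 to 605.6 in parental ID8 and 432.6 to 479.0 in ID8-M. The one tested gene of the list, Cd14, which NF-kappaB also controls and which non-myeloid cells can make, differed by −0.35 ± 0.09. Its call was lost without parental sample 1, parental sample 3, ID8-M sample 1 or ID8-M sample 3, and the value was −0.16 with the chromosome median removed.

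Of 8 neutrophil markers, 7 were detected on no array, S100a8, S100a9 and Csf3r among them, and the sum was 88.2 to 101.7 in parental ID8 and 102.6 to 113.6 in ID8-M, without a tested gene. Elane was detected on 1 ID8-M array only. That sum is thus signal near background and cannot be read as a difference between the lines. Of 5 T cell markers 3 were detected on no array (sums of 112.3 to 177.4 and 95.4 to 112.9). Cd3e was detected on all 6 arrays and not called (−0.29 ± 0.22, limma adjusted p = 0.355). Of 5 endothelial markers 2 were detected on no array (sums of 80.8 to 87.4 and 111.3 to 124.6), and Pecam1, undetected in parental ID8, was higher in ID8-M by at least 1.47-fold, with a log2 difference of 0.40 without background correction. Of 7 fibroblast markers 5 were detected on no array (sums of 4495 to 4833 and 6982 to 7202). Nearly all of both sums came from Dcn, which rose by 0.61 ± 0.08. Col1a1 was detected on all 6 arrays and not called (−0.10 ± 0.23, limma adjusted p = 0.776). The epithelial sum was 18081 to 19851 in parental ID8 and 29266 to 30911 in ID8-M, with 4 of 5 tested genes called higher, where 15.4% of all tested genes were. Krt8 (0.68) and Krt18 (0.70) were at 0.35 and 0.37 with the chromosome median removed, where both stayed called. Cdh1 was lower by its brighter probe (−0.61 ± 0.11), a call lost with the chromosome median removed (−0.29), and was not called by its other tested probe (−0.16). The mesothelial and ovarian surface sum was 9378 to 10110 in parental ID8 and 14299 to 15801 in ID8-M, with 2 of 4 tested genes called higher, beside the same 15.4%. The part of these marker differences in the chemokine values was not tested.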

How the data were processed

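Per the file headers, the authors deposited 4 values for each probe and array, namely an intensity averaged over beads, its standard error, the bead count and a p-value of detection. The deposited intensity is linear, and its array medians differ between arrays, as unnormalized values do. A further deposited table of intensities followed plain quantile normalization of the first to within 1.68% and served as an alternative. The scanner software is not named.

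Gene symbols came from the platform annotation (34885 probes with 1 symbol, 18 with several, 10378 with none), and gene order and promoters from RefSeq, GRCm38.p6. The function neqc (limma 3.58.1, R 4.3.3) corrected the background from the detection values, normalized by quantiles and took log2 with an offset of 16. A probe was tested if detected at 0.05 on 3 of 3 arrays in either line, which left 16221, by lmFit and eBayes, two-sided, with Benjamini-Hochberg adjustment over all of them. A gene is its brightest tested probe. Where a line has no detected array, the fold is a bound: the brighter mean against the mean over the dim line's arrays of the lowest detected signal, or the probe's own value where higher. Such bounds hold on the background-corrected scale only. Summed marker intensities are normalized values less the offset. The steps were tested on simulated data with known rises, placed only on probes with parental signal above background. A rise from background in parental ID8, as for Cxcl1, was thus not simulated.

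The number of arrays limits the precision. The members and lists were chosen with earlier results of these data known. Named beside the members are for each pathway list the 3 largest called rises and falls at most (with no call, the gene of smallest adjusted p), annotated neighbours, and the 5 genes nearest to Cxcl1. Alternatives changed the background step, normalization, offset, detection filter, variance model, probe choice, arrays and replicate block.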

Additional observations from a re-analysis of the deposited data

How the results depend on the processing

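Every tested CXC chemokine probe kept its direction under all alternatives that gave a value, and the calls of Cxcl1, Cxcl16 and Cxcl17 held under each of them. The Cxcl1 log2 difference ran from 3.01 to 5.23, with the lower end from the settings without background correction. A filter on detection under 0.01 on all 6 arrays leaves Cxcl1 out, so it gave no value there. Of the Cxcl10 probe, 11 of 16 alternatives kept the call. It was lost with no filter, which adjusts over more probes (−0.55, limma adjusted p = 0.0652), and leaving out each array in turn gave −0.68 to −0.45, with adjusted p from 0.0105 to 0.0765. The count of called CXC chemokine probes stayed between 5 and 6, and that of all probes between 3437 and 5337. The NF-kappaB list had 8 called genes, 13 without background correction, 13 with the authors' normalized table and 6 to 7 without single arrays. As the authors' table follows plain quantile normalization, these 2 settings are not separate checks. The interferon list had 4, between 1 and 3 without single arrays, 1 with no normalization between arrays and 2 with the replicate block. The mRNA decay list had 0, and up to 2 with a trended, robust variance. Calls over all probes moved in the same settings. From 4610 they went to 5296 without background correction or with the authors' table, and to 3437 to 3877 without single arrays. They were 3860 with no normalization between arrays, 3969 with the replicate block and 5337 with the trended, robust variance. The cause of these changes was not tested. Removing each chromosome's median difference, an alternative added after the data were seen, left the Cxcl1 difference at 5.13.

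Samples of the lines share replicate numbers, but same-numbered samples did not deviate together (correlations of 0.04, −0.09 and 0.01). Samples with different numbers gave −0.10 to 0.10. With 3 samples a line, this cannot tell whether the numbers mark pairs. With the number as a block, the Cxcl1 difference was 5.18 (limma adjusted p = 5.18e-06) and all 6 probes stayed called. Signal near background limits what Cxcl2, Cxcl9, Cxcl11, Cxcl14 and Cxcl15 can show.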
